A study of Forsythia koreana with 2 samples.

Results

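This report describes 222 abundant transcripts of Forsythia viridissima var. koreana that were much higher in flower than in leaf and still had reads in leaf. They were chosen from 69458 transcripts by values of the libraries compared here. Each had over 1000 expected counts summed over flower and leaf, 1 or more in leaf, and a log2(FPKM + 1) that was higher in flower by 2 or more. An expected count is the number of sequenced fragments that RSEM assigned to a transcript. FPKM divides it by the transcript's effective length and by the library total, so that it compares transcripts per length. Of the 1802 transcripts with over 1000 counts, 12.3% met the remaining limits, and of all transcripts 0.320% did. Because the flower to leaf contrast chose the set, that contrast is described here and not tested.

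RNA came from flowers and leaves of 2-year-old plants grown outdoors in Japan, with no treatment in either group. Poly(A) RNA was made into strand-specific libraries, 1 for flower and 1 for leaf, of 5466947 and 4982637 expected counts. The number of plants and the floral organs behind a library are not in the labels. A single library per tissue allows no replicate check and no p-value. Every interval of a transcript's ratio or of a library share below is a 95% interval that covers counting error only. In bulk tissue, a transcript found in few cells and one that is scarce in every cell cannot be told apart.

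A Forsythia flower holds sepals, yellow petals, stamens with pollen and a pistil, and the petals owe their colour mainly to carotenoids. Flowers open in spring, before or while the leaves expand, and the leaf is the main photosynthetic organ. The genus is used in medicine and known for lignans and phenylethanoid glycosides, which are products of the phenylpropanoid route. The files do not pair transcript identifiers with gene names or sequences, so none of the 222 is given a function, and the tissue labels were not checked against marker genes. An identifier such as TR17884|c1_g1_i1|c0_g1_i1 follows the naming scheme of the Trinity assembler. Its TR number and first c number name a component, the next g number a locus within it, and the i number an isoform.

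The flower preference in the set was graded, from moderate to near-exclusive. The difference in log2(FPKM + 1) had a median of 3.54, with quartiles of 2.59 and 5.74 and a range of 2.00 to 9.70. Over all 1802 abundant transcripts the median difference was 0.07. The ratio of a transcript's share of the flower counts to its share of the leaf counts had a median of 12.0 in the set and 1.04 over the abundant transcripts with a leaf count. In the set that ratio ran from 4.04 to 4754. A total of 86 transcripts differed by 2 to less than 3, 45 by 3 to less than 4, 40 by 4 to less than 6, 38 by 6 to less than 8, and 13 by 8 or more. The 91 with a difference of 4 or more were 41.0% of the set, while 6.33% of all abundant transcripts differed that much in favour of flower.

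**Figure D1:**
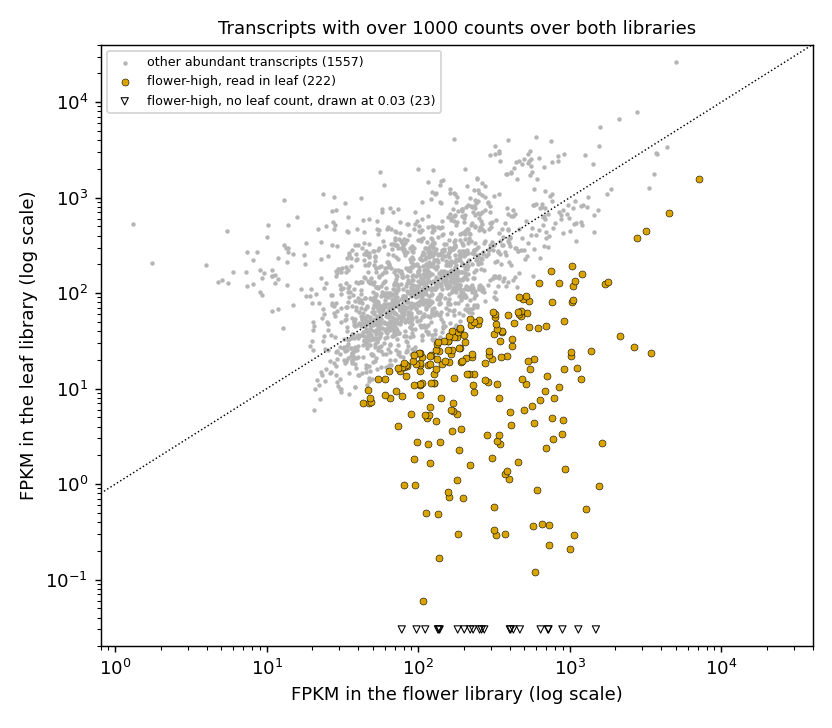
FPKM in the flower library (x axis) against FPKM in the leaf library (y axis), both on log scales, for transcripts with over 1000 counts summed over both libraries. Gold points are the 222 flower-high transcripts with a leaf count, which reach from 43.34 to 7079.9 FPKM in flower and from 0.06 to 1580.0 in leaf. Grey points are the other abundant transcripts with a leaf count, triangles are the 23 flower-high ones without a leaf count, and the dotted line marks equal levels.

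Counting error was small beside these differences for most of the set. The interval of the flower to leaf ratio lay wholly above 2-fold for 222 of the 222 transcripts and wholly above 4-fold for 206. Among all abundant transcripts, 12.7% had an interval wholly above 4-fold. An interval wholly above 100-fold was found for 33 of the set and for 3.11% of the abundant transcripts. Since the rule used the same counts, these shares describe the set and are no support for it.

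The grades differed more in their leaf level than in their flower level. From the lowest grade to the highest, median leaf FPKM was 26.5, 21.2, 7.45, 2.50 and 0.37. Median flower FPKM in the same order was 157, 274, 230, 380 and 733. Across the 222 transcripts the Spearman rho of the difference was 0.46 with flower FPKM and -0.70 with leaf FPKM. Both levels enter the difference, and these are values across transcripts of the same libraries, so they are descriptions without a test. Flower and leaf FPKM had a rho of 0.23 within the set and 0.28 over all 1802 abundant transcripts.

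The 222 transcripts took 12.2% of the flower library by counts (interval 12.21 to 12.26) and 0.923% of the leaf library (0.915 to 0.931). As TPM, which divides counts by effective length, they took 9.37% of the flower library and 0.740% of the leaf library. Their summed share was 13.3-fold higher in flower. The counts were unevenly spread over the set, since 41 of the 222 held 50% of its flower counts and the top 10 held 22.1%. In leaf 30 of the 222 held 50%. By FPKM rank, the set held 4 of the top 10 flower transcripts, 39 of the top 100 and 157 of the top 1000. In leaf it held 0 of the top 10, 1 of the top 100 and 7 of the top 1000.

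The grade that differed least carried most of the set's leaf reads. Transcripts with a difference of 2 to less than 3 held 30.3% of what the set had in flower and 71.0% of what it had in leaf. The 38 transcripts with a difference of 6 to less than 8 held 22.9% in flower against 2.31% in leaf. The 13 at 8 or more held 11.2% in flower against 0.137% in leaf. In leaf the set's reads came mainly from transcripts with moderate flower preference, while its flower reads were spread over all grades. The grades were cut on the flower to leaf difference, and the count limit keeps flower counts high in each. This split therefore follows in part from the rule and is a description.

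**Figure D2:**
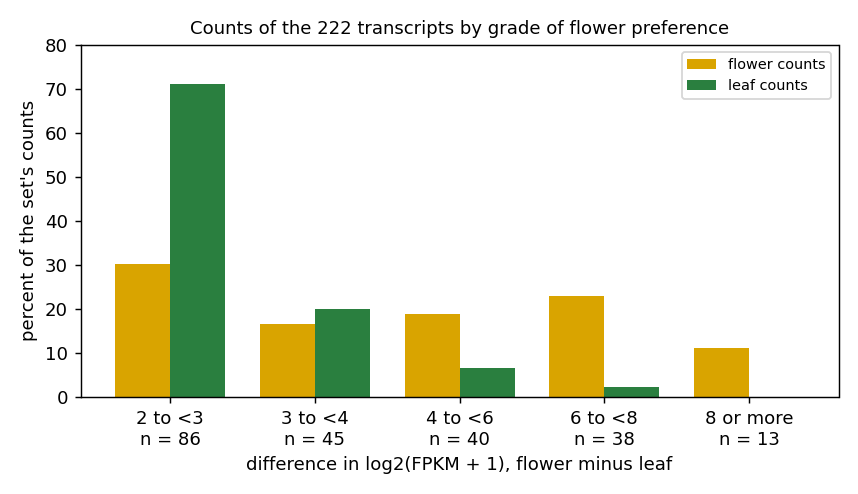
Percent of the set's summed counts (y axis) held by each grade of flower preference (x axis, difference in log2(FPKM + 1), flower minus leaf), with flower counts in gold and leaf counts in green. The grade from 2 to less than 3 holds 30.3% in flower and 71.0% in leaf, and the grade of 8 or more holds 11.2% and 0.137%.

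The most abundant flower transcripts of the set were of both kinds, moderate and extreme. Transcript TR17884|c1_g1_i1|c0_g1_i1, 614 bases long, had 7079.9 FPKM in flower and 1580.0 in leaf. It ranked 1 among all flower transcripts and 52 among all leaf transcripts, so it was abundant in both libraries. Its difference of 2.16 lay near the lower limit of the set.

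Transcript TR20146|c0_g1_i2|c0_g1_i1, the shortest of the set at 314 bases, had 4514.6 FPKM in flower and 691 in leaf. TR12539|c0_g1_i1|c0_g1_i1, 529 bases long, had 3173.1 FPKM in flower and 452 in leaf. TR21908|c1_g1_i1|c0_g1_i1, 1097 bases long, had 2794.8 FPKM in flower and 376 in leaf. These 3 had differences of 2.71, 2.81 and 2.89, so each was prominent in leaf as well. With TR17884|c1_g1_i1|c0_g1_i1 and TR17968|c0_g1_i2|c0_g1_i1 they had the 5 highest leaf levels of the set. TR17968|c0_g1_i2|c0_g1_i1, 607 bases long, had 1037.0 FPKM in flower and 193 in leaf.

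Another 4 of the 10 most abundant flower transcripts had far lower leaf levels, from 2.70 to 35.4 FPKM, against a median of 16.2 FPKM in leaf over the set. Transcript TR26409|c2_g1_i1|c0_g1_i1, 925 bases long, had 14251 counts in flower and 90 in leaf, or 3435.3 and 23.7 FPKM. It ranked 8 in flower and 7095 in leaf, and its count share was 144-fold higher in flower (interval 117 to 180). TR22012|c0_g1_i1|c0_g1_i1, 1241 bases long, had 15571 counts in flower and 148 in leaf, a ratio of 95.9 (81.6 to 114). TR29239|c5_g1_i1|c0_g1_i1, 2479 bases long, had the highest flower count of the set, 27002, or 0.494% of the flower library, against 409 in leaf. Its ratio was 60.2 (54.6 to 66.5).

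The most extreme of these 10 was TR31870|c1_g1_i6|c0_g1_i1, 2093 bases long, with 17274 counts in flower and 26 in leaf. Per length it had 1639.9 FPKM in flower against 2.70 in leaf, with a count ratio of 606 (413 to 927). The remaining 2, TR14870|c0_g1_i1|c0_g1_i1 and TR17452|c0_g1_i1|c0_g1_i1, lay between the groups. The first had 1797.0 FPKM in flower and 132 in leaf, and the second 1712.7 FPKM in flower and 124 in leaf. All 10 were the only transcript of their component in the deposited tables.

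**Figure D3:**
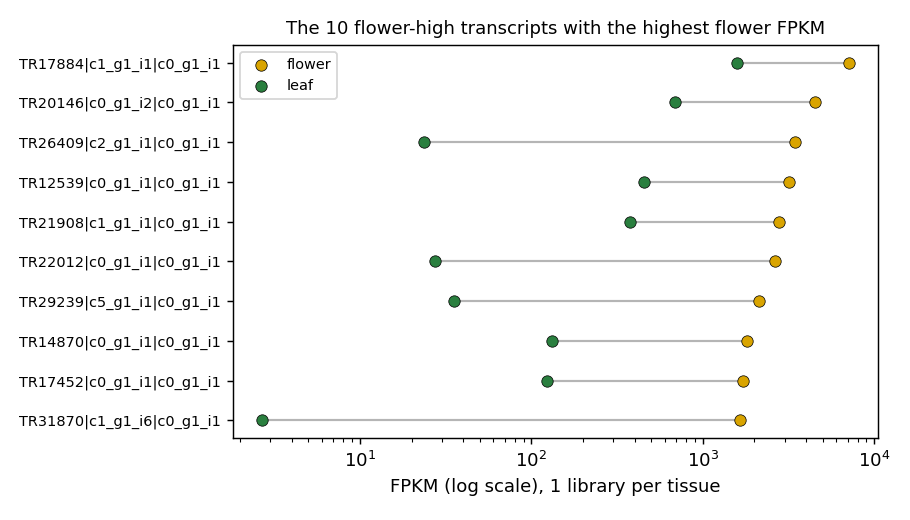
FPKM on a log scale (x axis) of the 10 flower-high transcripts with the highest flower FPKM, with flower in gold and leaf in green and 1 library per tissue. Flower levels lie within 1639.9 to 7079.9 FPKM, whereas leaf levels spread from 2.70 to 1580.0.

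At the far end of the gradient, leaf levels rested on single reads. Transcript TR21684|c0_g1_i1|c0_g1_i1, 1100 bases long, had the largest difference of the set, 9.70, with 5128 counts in flower and 1 in leaf. That is 1004.5 FPKM in flower and 0.21 FPKM in leaf. The interval of its count ratio ran from 838 to 184637, because 1 leaf read fixes the ratio poorly. TR40428|c0_g1_i1|c0_g1_i1, 896 bases long, had 5127 counts in flower and 2 in leaf, with an interval from 646 to 19298. TR18156|c1_g1_i1|c0_g1_i1, 865 bases long, had 4084 counts in flower and 1 in leaf, with an interval from 668 to 147055. The order among these 3 cannot be read from the data, since their intervals overlap widely.

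TR21092|c0_g1_i1|c0_g1_i1, 1010 bases long, had 7202 counts in flower and 4 in leaf, a ratio of 1641 (641 to 6024). TR19303|c0_g1_i1|c0_g1_i1, 1797 bases long, had 6531 counts in flower and 3 in leaf, a ratio of 1984 (679 to 9624). TR32818|c4_g1_i9|c0_g1_i1 had the highest ratio of counts, 4754 (853 to 187805), from 5216 counts in flower and 1 in leaf. A single leaf count was behind 6 of the 10 largest differences.

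In all, 9 of the 222 had 1 leaf count, 15 had 1 to 3, 29 had 10 or fewer, and 130 had 100 or more. The limit of 1 leaf count cut through a continuous range of leaf counts. The 15 transcripts with 1 to 3 leaf counts had 1039 to 6531 flower counts, with a median of 1910. The 23 flower-high transcripts without a leaf count had 1004 to 7292, with a median of 1583. These ranges overlap, so the presence of a leaf read did not separate transcripts by flower count. Per length the classes were less alike, with a median flower FPKM of 571 for the 15 and 262 for the 23. Their median lengths were 1030 and 1692 bases. The FPKM ranges also overlapped, at 107 to 1285 and 77.7 to 1486.5. Only 4 transcripts of the set had 1000 or more leaf counts, and they had 8573 to 17333 in flower.

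At the lower limit of the difference the set was continuous with the rest. Just inside, TR20113|c0_g1_i1|c0_g1_i1 had 219 FPKM in flower and 54.0 in leaf, a difference of 2.00. TR30760|c0_g1_i1|c0_g1_i1 had 63.7 FPKM in flower and 15.2 in leaf, also 2.00. Just outside, TR31535|c1_g1_i1|c0_g1_i1 had 986 counts in flower and 215 in leaf, a difference of 1.97. TR23254|c0_g1_i1|c0_g1_i1 had 174 FPKM in flower and 43.7 in leaf, also 1.97. There were 10 transcripts from 2 to less than 2.1 and 10 from 1.9 to less than 2. By counts, the smallest total in the set was 1003 and the largest of a transcript left out for its total was 996, in TR20360|c1_g1_i4|c0_g1_i1.

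Transcript length was not part of the rule, although a minimum count favours long transcripts. The set had a median length of 1783 bases (quartiles 1161 and 2297). The 23 without a leaf count had a median of 1692 bases, the 1332 abundant transcripts past neither limit 1756, and the 225 abundant leaf-high ones 1194. Within the set, shorter transcripts tended to larger differences, with a Spearman rho of -0.28 between length and difference. The constant added to FPKM lowers the difference most where FPKM is low, which at equal counts is in long transcripts. TR30723|c3_g3_i3|c0_g1_i1, 3352 bases long, had a count ratio of 1703 and a difference of 6.67. TR19420|c1_g1_i1|c0_g1_i1, 696 bases long, had a count ratio of 1741 and a difference of 8.90. The length trend and the class counts below thus follow in part from the measure. Length was not compared with the count ratio. Of the 36 transcripts under 1000 bases, 20 had a difference of 4 or more. Of the 25 with 3000 bases or more, 7 did. Long transcripts pass 1000 counts at a lower FPKM, and median flower FPKM was 717 in the short class and 102 in the long class.

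The longest transcript, TR32436|c2_g2_i5|c0_g1_i1 at 7712 bases, had 80.6 FPKM in flower and 0.98 in leaf. TR32728|c0_g1_i7|c0_g1_i1 at 5732 bases had 119 FPKM in flower and 1.66 in leaf, so length did not preclude a steep preference. The other 3 of the 5 longest, of 5406 to 6192 bases, differed by 2.14 to 2.67. One of them, TR32872|c0_g1_i1|c0_g1_i1, had the lowest flower level of the set, 43.3 FPKM in flower against 7.14 in leaf.

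The gradient was steeper in this set than among the abundant leaf-high transcripts. The 225 transcripts higher in leaf by 2 or more had a median difference of -2.72, and 41 of them (18.2%) differed by 4 or more. In the flower-high set 91 of 222 (41.0%) did. Of the flower-high set, 29 had 10 or fewer counts in the lower tissue, and of the leaf-high transcripts 1 did. With 1 library per tissue this contrast between the sets was not tested.

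Most of the set had no other transcript of its locus among the 69458 transcripts, and the same held for most abundant transcripts. A total of 149 transcripts were the only one of their locus there and 134 the only one of their component. Some of the 149 carry an isoform number above 1, such as TR31870|c1_g1_i6|c0_g1_i1, so other isoforms may be missing here. Partners and leading isoforms below are counted among the 69458 only. Loci with several transcripts held 73 of the 222 (32.9%), and 34.9% of all abundant transcripts lay in such loci. The 222 transcripts came from 206 loci in 202 components. Another transcript of the set shared the locus for 31 of them, in 15 loci. For the 134 and the 31, the share over all abundant transcripts was not computed, so both are descriptions.

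Where a locus held other transcripts, these were mostly higher in flower too. Among the 222, 67 had partners in the locus with 100 or more counts summed over both libraries, and for 55 of the 67 the summed partners were higher in flower by 2 or more. Some of those partners belong to the set and were used by the rule. With partners outside the set only, 37 of 49 were higher by that margin, with a median partner difference of 2.74. Transcripts of the set from the same locus share these partners, so the 49 are not separate observations. In locus TR31197|c2_g10 the same partner sum, with a difference of 10.58, was counted for 3 transcripts. For comparison, 13.2% of 552 abundant transcripts with partners of 100 or more counts had partners that were higher in flower by 2 or more. That is 73 transcripts, counts every partner of the locus, and includes the 55 of the set. Of the 424 past neither limit, 2.12% had such partners. None of the 49 had partners that were higher in leaf, while 263 of the 552 did. The lowest partner difference of the 49 was 0.18. Isoforms of a locus can hold the same reads, and no source used here says how such reads were assigned, so the part of shared reads in this likeness was not tested.

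**Figure D4:**
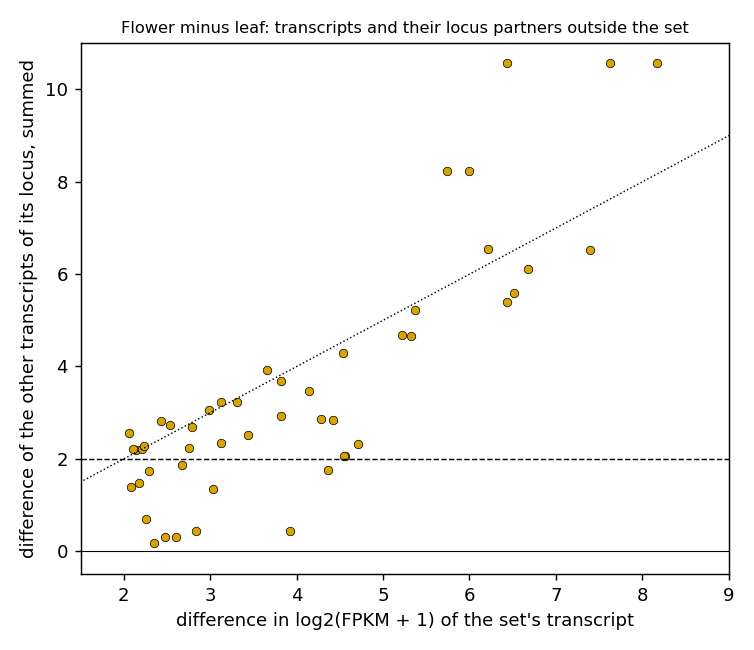
Difference in log2(FPKM + 1), flower minus leaf, of 49 flower-high transcripts (x axis) and of the summed other transcripts of the same locus that are outside the set (y axis). The dashed line marks a partner difference of 2, above which 37 of the 49 lie, and the dotted line marks equal differences. Partner differences run from 0.18 to 10.58. Transcripts of the set from the same locus share the same partner sum and are drawn as separate points.

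In 2 of the loci with the lowest partner differences, the other isoforms were abundant in both tissues. The partner of TR27821|c3_g1_i2|c0_g1_i1 had 358 FPKM in flower and 317 in leaf. The locus TR26995|c2_g1 held 6 transcripts, of which 2 were in the set. TR26995|c2_g1_i1|c0_g1_i1 had 701 FPKM in flower and 45.5 in leaf, and TR26995|c2_g1_i8|c0_g1_i1 had 473 in flower and 65.2 in leaf. The 4 other transcripts of that locus summed to 2658.0 FPKM in flower and 1975.8 in leaf, so the locus as a whole differed by 0.88. Summed over all transcripts, 199 of the 206 loci still met the rule. The other 7 did not reach the difference, the lowest being TR27821|c3_g1 at 0.62.

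Other loci of the same component gave a weaker likeness. Other loci with 100 or more counts were present for 25 of the 222, and they were higher in flower by 2 or more for 14 of these. Over all abundant transcripts 14.0% of 229 had such other loci. For 5 of the 25 the other loci were higher in leaf, and for 104 of the 229. Most of the 14 belong to components in which the other loci hold transcripts of the set themselves. The 14 include 7 transcripts of the single cluster TR31197. Transcripts of the set from the same locus share the same sum over other loci, so the 25 are not separate observations. A count with other loci outside the set only was not made.

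Cluster TR31197 held more of the set than any other TR number. It had 19 transcripts, of which 7 were in the set, and the other 12 were also higher in flower by 2 or more. The 7 took 0.296% of the flower library and 0.00460% of the leaf library. Its component TR31197|c2 comprised 15 transcripts in 6 loci, with 17145 counts in flower and 202 in leaf.

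Within that component the 5 transcripts of the set had 1718 to 4890 counts in flower and 2 to 48 in leaf. TR31197|c2_g10_i3|c0_g1_i1, 925 bases long, had 4890 counts in flower and 48 in leaf. TR31197|c2_g10_i9|c0_g1_i1, 1490 bases long, had 2711 counts in flower and 2 in leaf, and TR31197|c2_g10_i7|c0_g1_i1, 572 bases long, had 1718 in flower and 6 in leaf. In another locus of the component, TR31197|c2_g9_i1|c0_g1_i1 had 1800 counts in flower and 30 in leaf, and TR31197|c2_g9_i2|c0_g1_i1 had 1832 in flower and 25 in leaf. The 10 transcripts of the component outside the set had totals of 55 to 1004 counts and differences of 3.21 to 10.11. The deposited files hold no sequences, so whether these short loci belong to a single gene was not tested.

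Some members of a locus had nearly equal counts in flower. Of 17 pairs from the same locus, 6 had flower counts within 1.1-fold of each other, and 11 had differences within 0.5 of each other. Both transcripts of a pair had to meet the rule, which narrows their range. The same shares were not computed for pairs outside the set, so these are descriptions. TR21654|c1_g1_i1|c0_g1_i1 had 2746 counts in flower and 168 in leaf, and its partner TR21654|c1_g1_i2|c0_g1_i1, 19 bases shorter, had 2734 in flower and 198 in leaf. TR31997|c1_g1_i4|c0_g1_i1 had 993 counts in flower and 148 in leaf, and TR31997|c1_g1_i1|c0_g1_i1, which is 22 bases longer, had 983 in flower and 132 in leaf. These 2 pairs and the rest of the 6 differed in length by 19 to 129 bases. With 1 transcript kept per locus, the one with most flower counts, the set took 11.7% of the flower library and 0.890% of the leaf library.

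Other pairs differed in their preference. TR32818|c4_g1_i9|c0_g1_i1, 1796 bases long, had 5216 counts in flower and 1 in leaf, while TR32818|c4_g1_i8|c0_g1_i1, 1259 bases long, had 2244 in flower and 7 in leaf. TR17968|c0_g1_i1|c0_g1_i1 had 1605 counts in flower and 105 in leaf, a difference of 3.78. Its partner TR17968|c0_g1_i2|c0_g1_i1 had 2499 in flower and 429 in leaf, a difference of 2.42, so isoforms of 646 and 607 bases were unequal in leaf more than in flower.

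In some loci the leading isoform differed between the tissues. Of 68 transcripts of the set in loci of several transcripts with 10 or more counts in each library, 47 had the highest FPKM of their locus in flower. For 34 of the 47 the same transcript led in leaf, and for 13 another one did, which is 19.1% of the 68. By counts in place of FPKM, 9 transcripts of the set led in flower and not in leaf. In some of the 13 loci the leaf leader by FPKM was a shorter isoform with fewer leaf counts. A change of leader thus depends in part on the measure. Among all 615 abundant transcripts in such loci, 9.76% led in flower and not in leaf. The rule selects transcripts for a high flower level relative to leaf, which favours this pattern, so the share is a description.

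The clearest case was locus TR27157|c0_g1, with 2 transcripts. TR27157|c0_g1_i2|c0_g1_i1, 1950 bases long, had 2678 counts in flower and 110 in leaf, and took 65.3% of the locus FPKM in flower and 22.4% in leaf. The other transcript, TR27157|c0_g1_i1|c0_g1_i1 at 1661 bases, had 1191 counts in flower and 319 in leaf. In locus TR25940|c2_g2, TR25940|c2_g2_i4|c0_g1_i1 took 46.3% of the FPKM in flower and 20.9% in leaf. The leaf-leading transcript there, TR25940|c2_g2_i1|c0_g1_i1, had 143 counts in flower and 175 in leaf and was thus lower in flower per length, at 59.5 FPKM against 79.1 FPKM in leaf.

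TR25301|c1_g1_i3|c0_g1_i1 took 29.1% of its locus in flower and 8.09% in leaf, where TR25301|c1_g1_i4|c0_g1_i1 led with 44.9%. At the other extreme the lead passed between near-equal isoforms. TR28133|c1_g1_i4|c0_g1_i1 took 35.9% of its locus in flower and 36.5% in leaf, where another isoform had 36.9%. TR28333|c1_g1_i3|c0_g1_i1 took 51.4% in flower and 49.4% in leaf. For these 2 loci the difference in leader rests on differences of a few percent of the locus.

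**Figure D5:**
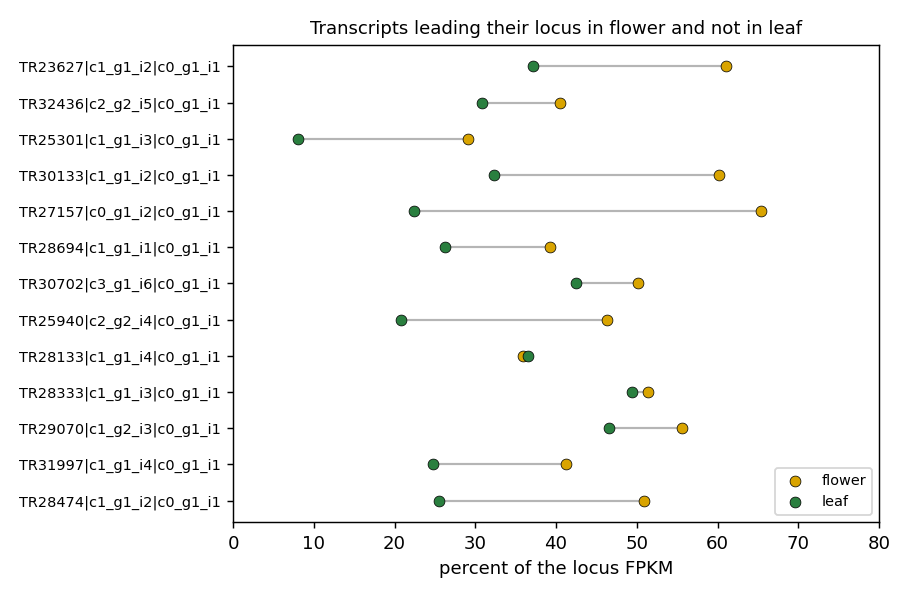
Percent of the locus FPKM (x axis) taken in flower (gold) and in leaf (green) by the 13 flower-high transcripts that lead their locus in flower and not in leaf. The widest gap is that of TR27157|c0_g1_i2|c0_g1_i1, at 65.3% in flower and 22.4% in leaf, while TR28133|c1_g1_i4|c0_g1_i1 is at 35.9% and 36.5%.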

How the data were processed

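The authors deposited 1 RSEM table per tissue with expected counts, TPM and FPKM per transcript, per the file headers. The percent of each gene's expression that the authors deposited was not used, since each transcript has its own gene identifier. The submitters' processing notes name Trimmomatic and RSEM, and no source used here gives an assembler, an aligner or settings. A joined table deposited by the authors repeats the FPKM, and 0 of the 222 transcripts differed from it. Every expected count was whole (0 exceptions in each library, at a tolerance of 0).

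Tables were joined on the transcript identifier and the rule applied with a pseudocount of 1, which understates differences of transcripts scarce in leaf. Ratios of count shares have exact 95% Clopper-Pearson intervals, conditional on the summed count and not adjusted over transcripts. Reads carry no molecular identifiers, so intervals of transcript ratios and library shares cover counting error only. No test between tissues was possible with 1 library each. Partners were summed over loci or components read from identifier stems. The rule and interval were tested on simulated data. TMM factors were computed with edgeR 4.0.16 (R 4.3.3), and other steps used Python 3.11.15, numpy 2.4.6, pandas 2.3.3 and scipy 1.17.1. Members and lists were chosen with earlier results of these data known. Transcripts named were drawn from lists, and some transcripts of these lists are not named in the text. The lists held the 10 highest flower FPKM, the 10 largest and 5 smallest differences, and the 5 highest leaf FPKM. They also held the 5 longest, the 5 shortest and those in a component with 3 or more of the set. Transcripts that lead their locus in flower only and neighbours of the limits completed them. Locus partners and pairs named beside these transcripts were chosen after their values were seen. Gene and marker lists had no names to match and gave no result.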

Additional observations from a re-analysis of the deposited data

How the results depend on the processing

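No paired analysis was possible because there was a single library for flower and for leaf, and for the same reason none could be left out. Of 37 alternatives, 26 stayed within the limit set for them (1.5 times the count, or the 95% interval of other values) and 11 did not. For the median ratio of 12.0 that interval was 9.23 to 16.3. Both its ends are ratios of transcripts of the set, so it describes a spread over transcripts and not counting error. The size of the set followed its limits, with 401 transcripts at over 500 counts, 104 at over 2000 counts, 2782 without a minimum and 136 at a log2 difference of 3. TMM scaling shifted the log2 ratio of flower to leaf by -0.25 for every transcript. It left 194 transcripts, all of them among the 222, and median-of-ratios scaling left 195. The flower share of 12.2% became 9.37% as TPM, 13.0% with all transcripts of the loci and 11.7% with 1 transcript per locus. The leaf share of 0.923% became 0.740%, 1.18% and 0.890% under these settings. The choice of 1 transcript per locus, of partners outside the set and of partners from other loci was made after seeing the data. Counted per transcript of the set, partners higher in flower by 2 or more numbered 55 of 67 (82.1%) in the locus. In other loci of the component they numbered 14 of 25 (56.0%). Transcripts of the same locus can share partners in these counts. The cause of these moves was not tested, other than that stricter limits leave fewer transcripts in the set. Depth limits the ratios of the 15 transcripts with 1 to 3 leaf counts, whose leaf level is a few reads.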
